A study of Mus musculus with 4 samples.

Results

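Messenger RNA of the cytosolic ribosomal proteins was compared between wild-type (WT) and Sin3B knockout (KO) haematopoietic stem cells, with the large and the small subunit kept apart. The genes were taken by name: every gene with library values whose symbol is that of a large subunit protein (Rpl and a number, or Rplp0 to Rplp2) or of a small subunit protein (Rps and a number, or Rpsa), without the S6 kinase genes. This gave 61 genes, 36 of the large and 25 of the small subunit, among 9244 genes with values in each library. RefSeq has 84 mouse protein-coding genes with such names, and the other 23, among them Rpl11, Rpl35a and Rps28, were not analysed here. The names Rps3a1 and Rps4y2 fall outside the pattern, and the small subunit protein Rack1, listed as Gnb2l1, carries no ribosomal protein symbol.

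The cells came from C57BL/6 mice of 8 to 12 weeks and were sorted by the LSK CD34- FLk2- phenotype, which enriches long-term stem cells of the bone marrow. There were 2 libraries of WT cells and 2 of Sin3B KO cells, prepared from polyA RNA with the SMARTer kit chemistry for low input, in which the reverse transcriptase switches templates. Sin3B is a scaffold protein that brings histone deacetylases to DNA-binding repressors. How the knockout was made, which part of the gene is missing and in which cells is not given in the sources used here. Nothing in the labels ties the libraries to separate animals, so a p-value here reflects variation among 4 libraries, and that variation may be technical.

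A ribosome joins a small subunit, which reads the messenger RNA, to a large subunit, which forms the peptide bond, and each ribosome needs a single copy of nearly all of its proteins. The subunits are built in the nucleolus around ribosomal RNA by many assembly factors that leave before translation starts. Ribosomal protein mRNAs characteristically begin with a run of C and T letters, the TOP motif, through which mTORC1 and Larp1 control their translation. RNA sequencing of whole-cell RNA does not measure translation. Whether the motif also bears on the mRNA levels compared here was not tested. Adult haematopoietic stem cells are known for a low rate of protein synthesis, and loss of 1 copy of several ribosomal protein genes causes Diamond-Blackfan anaemia, a failure of red cell production.

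To show how the members' starts differ in this respect, the 30 bases around the transcription start are printed for the genes that stood farthest apart below and for the paralog pair with an entry for both genes. All come from RefSeq promoters on build GRCm38.p6, 15 bases of promoter before the start and 15 of the first exon, read 5′ to 3′ on the gene's strand, and capitals mark the longest unbroken run of C and T within the window. Rpl22l1, the paralog of Rpl22, starts at chr3:28805493-28805522 on the plus strand, and Rpl22 at chr4:152325711-152325740 on the plus strand. Rpl39 lies at chrX:37085208-37085237 on the minus strand and Rpl28 at chr7:4792950-4792979 on the plus strand. Rps13 lies at chr7:116334176-116334205 and Rps15a at chr7:118116133-118116162, both on the minus strand, and Rpl7l1 at chr17:46782642-46782671 on the minus strand. Rpl7a, at chr2:26910792-26910821 on the plus strand, is shown as the member with the longest run within the window.
Rpl22l1: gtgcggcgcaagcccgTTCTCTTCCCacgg
Rpl22: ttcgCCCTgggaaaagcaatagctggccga
Rpl39: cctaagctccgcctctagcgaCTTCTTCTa
Rpl28: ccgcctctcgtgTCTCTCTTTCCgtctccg
Rps13: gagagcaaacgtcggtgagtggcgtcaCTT
Rps15a: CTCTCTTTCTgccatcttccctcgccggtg
Rpl7l1: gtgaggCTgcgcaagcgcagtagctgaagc
Rpl7a: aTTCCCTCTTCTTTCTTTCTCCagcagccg

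The run was 10 letters long in Rpl22l1 and 4 in Rpl22, 11 in Rpl28 and 3 in Rps13, and 21 in Rpl7a. Runs that reach an edge of the window, as in Rps13, Rps15a and Rpl27a (19 letters), may go on outside it. The marked run of Rps15a lies wholly before the start, but another, unmarked run of at least 8 letters (tcttccctc) crosses the start. Of the 61 members, 46 had an entry in the promoter table, and 19 of these (41.3%) held a run of at least 8 C or T letters in the window, read on the gene's strand only. The share was 12 of 27 for the large subunit (44.4%) and 7 of 19 for the small subunit (36.8%), against 3205 of 27025 windows at the first listed start of all genes (11.9%). A run of letters in this window is a description of the sequence and not a mapped TOP motif. The 19 members with such a run had a median log2 fold change of -0.10 between the genotypes, with 8 above 0, and the 27 without had a median of -0.04, with 9 above 0.

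Values are the authors' normalised read counts, each gene's reads divided by a size factor of its library. If the smallest step between values is taken as 1 read, an assumption no source states, the listed genes of WT 1 and WT 2 held 9950979 and 11754067 reads, and those of KO 1 and KO 2 held 12637960 and 13700630. Sin3b itself read 1522 and 1825 in the WT libraries and 755.4 and 646.5 in the KO libraries, in the direction of the labels but not at 0. All 11 sort markers and stem cell genes looked for were listed in every library, with Ly6a at 2343 to 2812 and Procr at 2050 to 3392. Cd34 and Flt3 (Flk2), which the sort selects against as surface proteins, were listed too. Cd34 was at 4945 to 6508. Flt3 read 1170 and 371.9 in WT and 830.4 and 354.0 in KO, higher in the library numbered 1 of each genotype. For Fgd5 (710.3 and 1240 in WT, 256.6 and 643.0 in KO) and Hlf (8877 and 7805 in WT, 5353 and 7054 in KO), genes marking stem cells, the KO values were both below the WT values, and neither passed the test. The list as a whole did not share this direction. Of its 11 genes 7 had a log2 fold change (KO minus WT) above 0, beside 53.4% of all genes, and the median was 0.05. In Ly6a both KO values were above both WT values, and in 8 genes the groups overlapped. The libraries numbered 1 stood apart in genes of other blood cells. Ebf1, a B cell factor, read 378.5 and 348.9 in WT 1 and KO 1 but 2.97 and 7.13 in WT 2 and KO 2. Not every such gene did so. Cd72, of the B lineage, read 791.3 and 775.4 in WT and 708.3 and 761.6 in KO. Car1, an erythroid gene, read 2847 and 3353 in WT and 10488 and 3984 in KO. The summed level of 11 myeloid and granulocyte genes, all of them measured, was 77745 and 14772 in WT 1 and WT 2 and 53757 and 24454 in KO 1 and KO 2. That of the 7 measured of 10 erythroid genes was 7909 and 4638 in WT and 18060 and 5735 in KO, with Slc4a1 at 0 in WT 2, and that of the 6 measured of 9 B lineage genes was 4155 and 2265 in WT and 4677 and 2389 in KO. The part of these cells in the results below was not tested, and results are given without single libraries where that matters.

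The part of the signal that came from ribosomal protein mRNA overlapped between the genotypes. Large subunit genes took 0.666% of the listed signal in WT 1, 0.784% in WT 2, 0.726% in KO 1 and 0.740% in KO 2, so that both KO libraries lay between the WT libraries. The WT mean was 0.725% ± 0.0832 (SD, n = 2) and the KO mean 0.733% ± 0.0101 (SD, n = 2) (exact two-sided permutation test, p = 1.0, where 0.333 is the smallest p that 2 against 2 libraries can give). Small subunit genes took 0.408% and 0.477% in WT and 0.408% and 0.432% in KO, with means of 0.443% ± 0.049 and 0.420% ± 0.0171 (SD, n = 2 each; exact two-sided permutation test, p = 0.667). The KO 1 share of the large subunit was above that of WT 1, and the KO 2 share was below that of WT 2. These shares are of a signal scaled to each library, so a change in total mRNA per cell would not appear in them, and in a bulk sample fewer cells of a type cannot be told apart from less RNA per cell.

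The members spanned a wide range of levels. Per kb of coding sequence their means over the 4 libraries ran from 213.5 (Rpl5) to 43175 (Rpl41), a 202-fold range. The upper end of this range rests on the short coding sequence of Rpl41, 78 bases, by which a mean of 3368 was divided. Uncorrected for length, large subunit genes averaged from 136.0 (Rpl19) to 16130 (Rpl4), a 119-fold range with a median of 736.6, and small subunit genes from 159.0 (Rps23) upwards, with a median of 602.6. Of the 61 genes, 8 averaged over 5000 and 14 under 300, and the 10 highest held 67.3% of the members' signal. The highest of the large subunit were Rpl4, which lines the exit tunnel for the growing peptide, Rpl8, which sits near the peptide bond centre, and Rplp0, the base of the stalk. Rpl4 read 12987, 16504, 17513 and 17514 in WT 1, WT 2, KO 1 and KO 2, and Rpl8 read 12140, 14682, 14546 and 14842. In the small subunit Rps3, at the mRNA entry, and Rps9, in the body near the entry, were among the highest. Rps3 read 8876, 11373, 9871 and 10871, in the same order of libraries, and WT 1 was the lowest library for Rps3 as it was for Rpl4 and Rpl8.

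**Figure D1:**
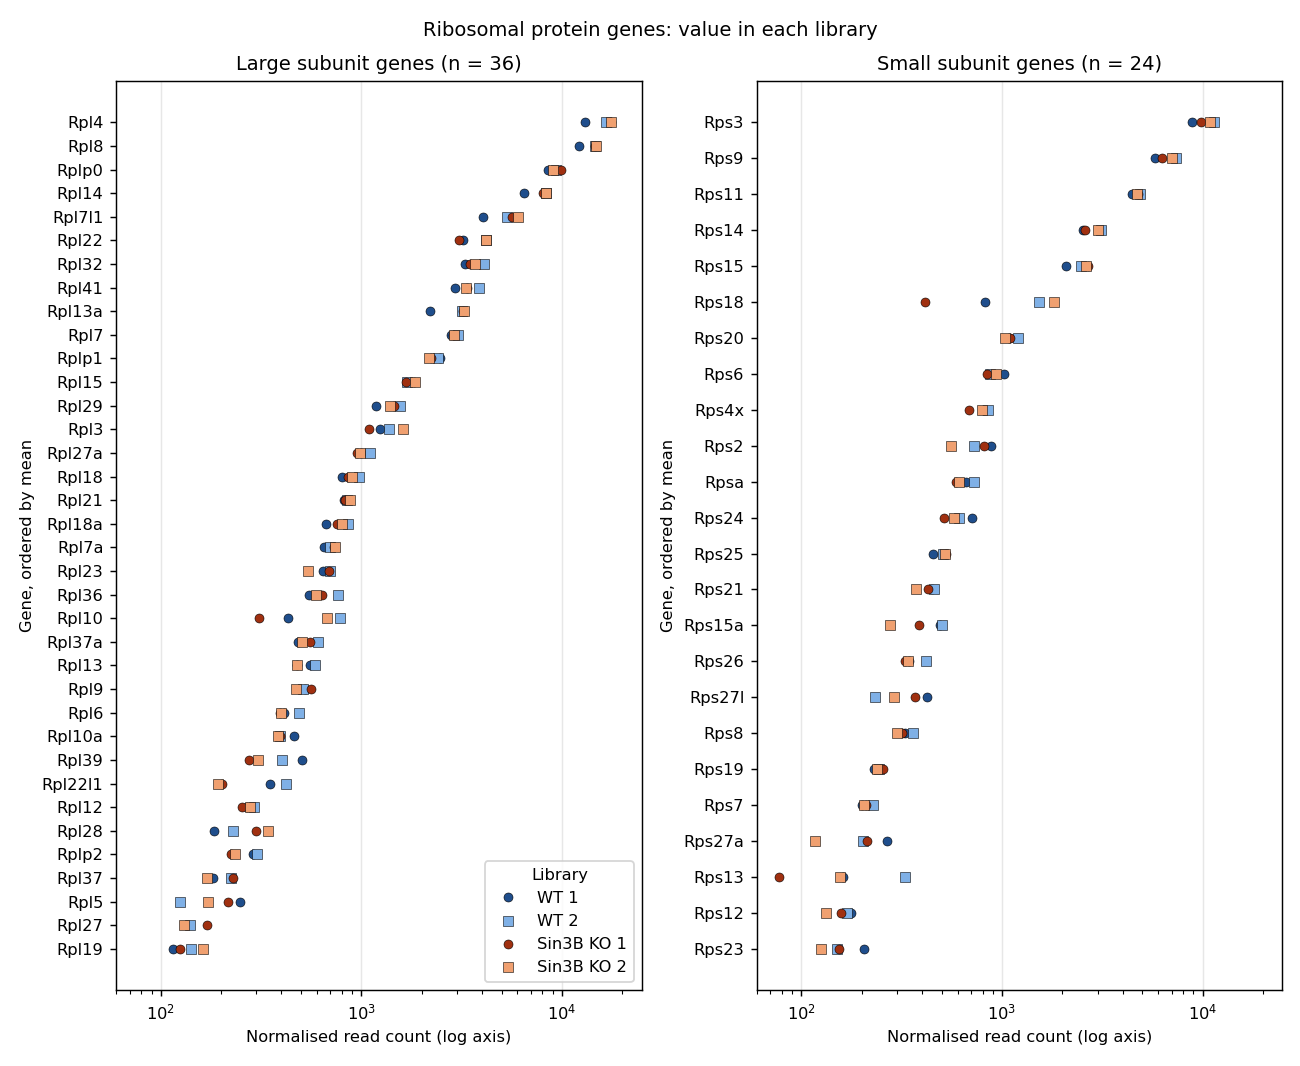
Normalised read count of each ribosomal protein gene in each library on a log axis, large subunit (36 genes) left and small subunit (24 of 25 genes drawn) right, ordered by mean. Circles are the libraries numbered 1 and squares those numbered 2, WT in blue and Sin3B KO in red and orange; for most genes the 4 points lie close together against the 119-fold range between genes, while Rps13, Rps18 and Rpl10 spread widely.

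The listed level was higher in members with more coding sequence of their own. Ribosomal protein genes have many processed pseudogenes, copies of the mRNA inserted elsewhere in the genome, and reads shared with a copy may be dropped or split when they are mapped. For each member the share of 50-base windows of its coding sequence that occur in no other annotated transcript (GENCODE M21) was computed, and the median over the 61 members was 12.2%. Rpl8 had 91.3% of its windows to itself and a level of 18156 per kb of coding sequence, and Rps3 had 91.9% and 14000 per kb. At the other end Rpl5, with none of its windows unique and 14 pseudogenes sharing them, was at 213.5 per kb. Rpl7a shared windows with 123 other genes, 120 of them pseudogenes, had 6.65% unique and read 878.6 per kb. Rpl41, whose coding sequence has 78 bases, went against this pattern with none of its windows unique and the highest level per coding kb, 43175. Its mean before division by length was 3368, below the 16130 of Rpl4. Reads from outside the coding sequence may be in the count but are not in the length, and their part in the level of Rpl41 was not tested. Rpl41 and Rpl7a are named here after their values were seen.

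In groups of members, the 43 with under 25% of windows unique had a median of 893.4 per coding kb, the 5 from 25% to 50% a median of 6183, the 8 from 50% to 75% a median of 7255 and the 5 above 75% a median of 14000. Over the 61 members, Spearman's rho between the level per coding kb and the unique share was 0.655, and Pearson's r with the log2 level was 0.72. Spearman's coefficient was 0.601 within the 36 large subunit genes and 0.797 within the 25 small subunit genes, and 0.618 over all members with 36-base windows. These are descriptions over genes that share libraries and sequence families. Of the 23 names not analysed here, 22 had a coding sequence in the annotation, and their median unique share was 0.353%. No source used here gives the read length, the handling of reads with several hits or the annotation used for counting, so levels of members with few unique windows are uncertain, and the part of shared reads in these levels was not tested.

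**Figure D2:**
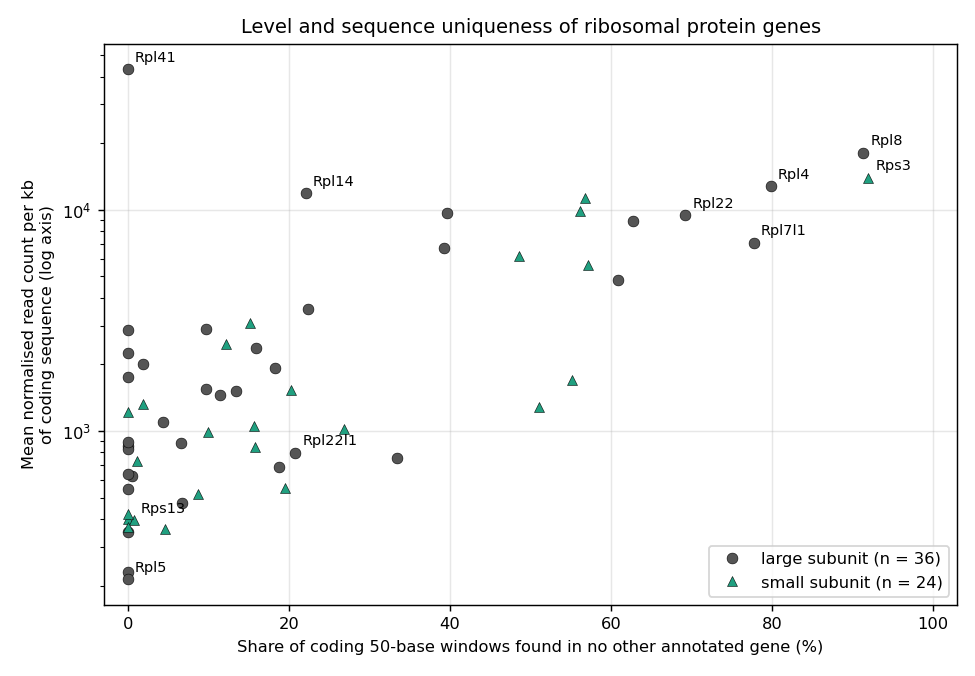
Mean normalised read count per kb of coding sequence (log axis) of ribosomal protein genes against the percentage of 50-base windows of their coding sequence found in no other annotated gene; circles are large and triangles small subunit genes (24 of 25 drawn). Rpl8, Rps3 and Rpl4 lie to the upper right, at 12801 to 18156 per kb, and the 43 below 25% have a median of 893.4, with Rpl41 as the high exception.

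Between the genotypes no ribosomal protein gene passed an adjusted p of 0.05 in limma's moderated test of log2(value + 1) with Benjamini-Hochberg adjustment over all 9244 genes, and neither did any other gene (0% of all genes). Sin3b itself did not pass, at a log2 fold change of -1.25 (adjusted p = 0.548 by limma). At an unadjusted p under 0.05, 1 of the 61 members was called, Rpl22l1 with lower KO values, against 8.91% of all genes in either direction and 3.95% with lower KO values. The KO and WT values did not overlap for 24 of the 61 members (39.3%), against 44.1% of all genes. A log2 fold change, given throughout as KO minus WT, lay within 0.25 of 0 for 28 of 36 large subunit genes (77.8%) and 17 of 25 small subunit genes (68.0%), compared with 47.1% of all genes. The 95% interval of the fold change lay wholly between -1 and 1 for 47 of 61 members (77.0%, compared with 60.8% of all genes), with a median width of 0.55 to each side, so for most members a difference of 2-fold or more lay outside the interval while smaller differences could not be resolved with 2 libraries a group. In the authors' deposited table no member passed an adjusted p of 0.05 either, where 0.316% of its 9796 genes did, and 1 member, again Rpl22l1, had an unadjusted p under 0.05, where 9.5% of its genes did.

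**Figure D3:**
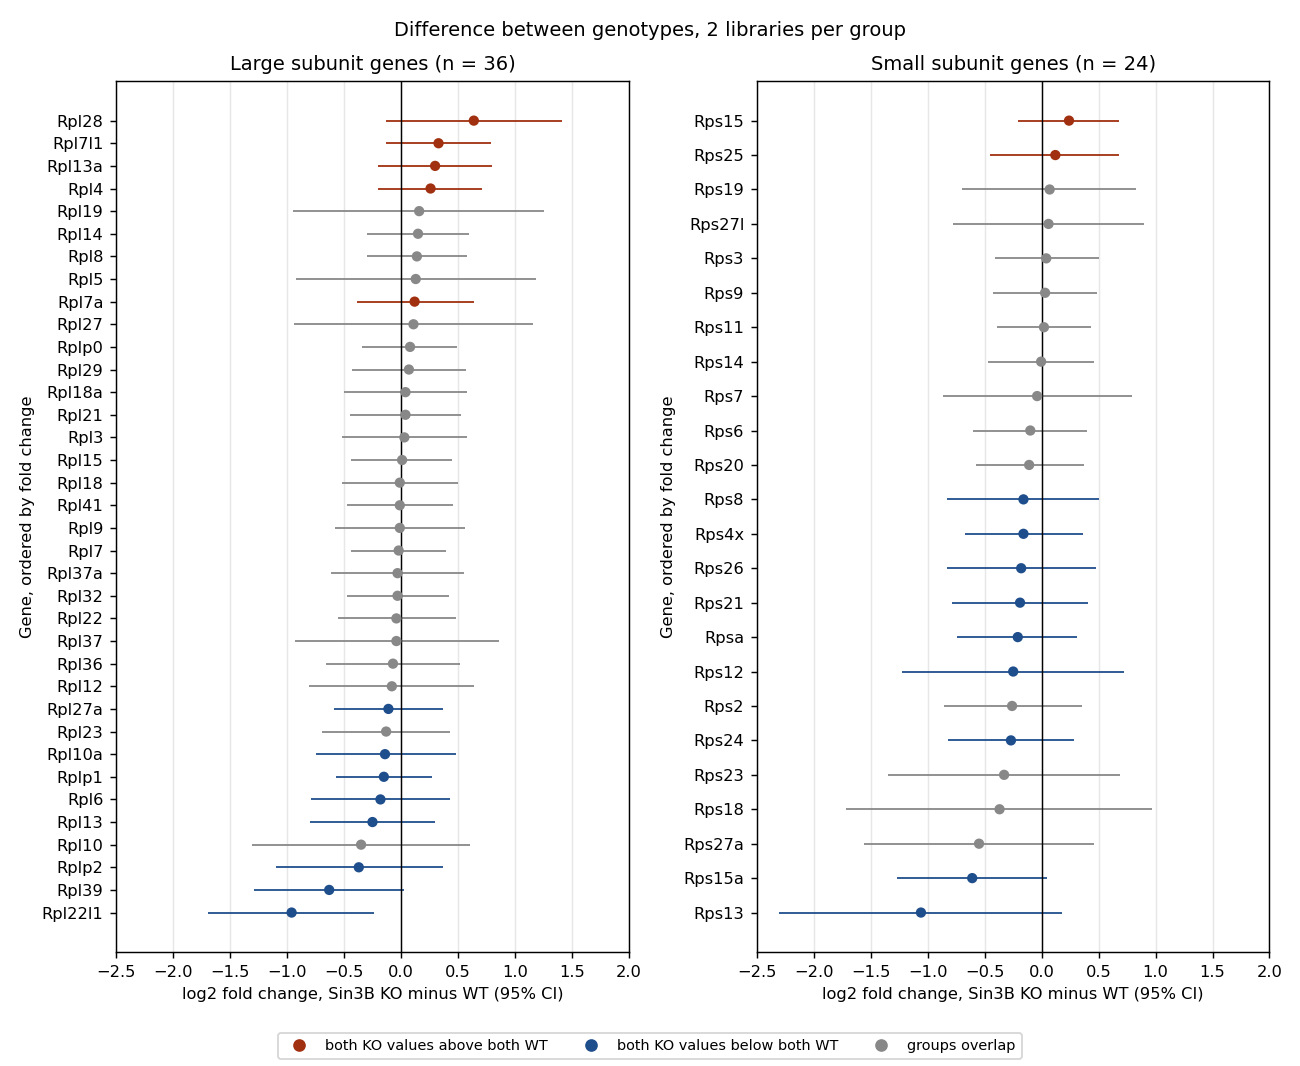
Log2 fold change of each ribosomal protein gene, Sin3B KO minus WT, with its 95% confidence interval from limma (2 libraries per group), large subunit left and small subunit (24 of 25 genes drawn) right. Red marks genes whose KO values both lie above the WT values, blue the reverse and grey an overlap; Rpl22l1 at -0.96 is the member whose interval leaves out 0.

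In the large subunit the fold changes lay on both sides of 0. Of 36 genes 16 were above 0, with a median of -0.01 and quartiles of -0.12 and 0.11, where all genes had a median of 0.03 and 53.4% above 0. The KO values were both above the WT values for 5 genes and both below them for 8, where such a separation occurred in 24.7% and 19.4% of all genes. The median was -0.13 without WT 1, with 13 genes above 0, and 0.12 without WT 2, with 23 above 0, so its sign depended on which WT library was kept. After scaling to equal totals it was -0.10, with 10 genes above 0 (-0.05 over all genes). With the exon length trend removed it was -0.08, also with 10 above 0 (0.04 over all genes).

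The genes of the P stalk, the flexible arm that recruits translation factors, did not have a common direction. Rplp0 read 8561 and 9343 in WT and 9866 and 9029 in KO, and the groups overlapped (log2 fold change 0.08, and -0.01 or -0.12 after scaling to equal totals or quantiles). Rplp1 read 2460 and 2414 in WT and 2220 and 2174 in KO, a log2 fold change of -0.15 (SE 0.18). Rplp2 read 288.5 and 300.7 in WT and 223.0 and 233.6 in KO, a log2 fold change of -0.37 (SE 0.32, adjusted p = 0.687 by limma). For Rplp1 and Rplp2 both KO values were below both WT values, by more than the replicates of a group differed. Rpl5, which with Rpl11 and the small ribosomal RNA forms the particle that binds Mdm2, read 249.7 and 124.6 in WT and 216.3 and 173.0 in KO. Its WT libraries differed 2-fold, its fold change had an SE of 0.46, and the sign turned without WT 2 (-0.37).

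Of the 9 genes listed for the peptide exit tunnel and its rim, 4 were measured. Rpl39, a very small protein at the lower end of the tunnel, read 506.2 and 400.6 in WT and 275.8 and 305.9 in KO. All KO values lay below the WT values, with a log2 fold change of -0.63 (SE 0.29, adjusted p = 0.548 by limma). Rpl4, with the values given above, was at 0.26 (SE 0.20), and both KO values were above both WT values while WT 1 lay apart from the other 3 libraries. Without WT 1 the log2 fold change of Rpl4 was 0.09.

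Among the remaining large subunit genes Rpl28, a protein that yeast lacks, had the highest fold change. It read 184.7 and 228.5 in WT and 299.9 and 342.4 in KO, a log2 fold change of 0.64 (SE 0.34, adjusted p = 0.558 by limma), and the groups did not overlap. None of its 50-base windows was unique, and 4 pseudogenes shared them. Rpl13a, which can leave the ribosome to silence inflammatory mRNAs, read 2191 and 3159 in WT and 3222 and 3259 in KO. Only WT 1 stood apart, and the log2 fold change of 0.30 became 0.04 without it. Rpl13 read 551.8 and 588.5 in WT and 477.7 and 480.7 in KO, a log2 fold change of -0.25 (SE 0.24), again without overlap.

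In the small subunit more genes lay below 0 than above. Of 25 genes 8 were above 0, with a median of -0.16 and quartiles of -0.26 and 0.03, beside 53.4% above 0 and a median of 0.03 over all genes. Both KO values lay below both WT values for 9 genes and above both for 2, where 19.4% and 24.7% of all genes were separated in these directions. The median lay between -0.16 and -0.10 when single libraries were left out, was -0.24 after scaling to equal totals (-0.05 over all genes) and was -0.05 among the 14 genes whose mean reached 500 (0.11 over all genes of that level). No gene passed the test, and the smallest adjusted p by limma was 0.55. Across all genes the fold change was higher at higher levels (Spearman's rho 0.306, n = 9244, a description over genes), as it did over the 61 members (rho 0.41).

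By position the body and platform, the part of the small subunit below the head, held most of the genes below 0. Of its 17 listed genes 15 were measured, 2 were above 0, the median was -0.18, and 8 had both KO values below both WT values, where 19.4% of all genes did. These 15 are also most of the 25 small subunit genes measured. Rps13, in the body, had the lowest fold change of all members: it read 161.9 and 326.4 in WT and 76.9 and 156.1 in KO. The groups were separated by less than the libraries of each differed, and the log2 fold change of -1.06 (SE 0.55, adjusted p = 0.552 by limma) ranged from -1.57 to -0.56 when single libraries were left out. Only 0.737% of the windows of Rps13 were unique. Rps15a, of the same region and mutated in Diamond-Blackfan anaemia, read 489.1 and 503.4 in WT and 383.5 and 275.6 in KO, a log2 fold change of -0.61 (SE 0.29, adjusted p = 0.55 by limma). Rps24, another gene of that disease, read 708.0 and 612.2 in WT and 514.2 and 576.1 in KO, a log2 fold change of -0.27 (SE 0.24). The highly expressed Rps9 read 5761 and 7405 in WT and 6308 and 7071 in KO, with a log2 fold change of 0.03 that was -0.05 after scaling to equal totals and -0.15 without WT 1.

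In the head, which turns as the ribosome moves along the mRNA, 9 of 14 listed genes were measured, 5 were above 0 and the median was 0.04. Rps15, near the decoding site, read 2072 and 2462 in WT and 2685 and 2632 in KO, a log2 fold change of 0.24 (SE 0.19). Rps25, which viral internal entry sites need, read 454.9 and 506.4 in WT and 524.8 and 517.2 in KO, a log2 fold change of 0.12 (SE 0.25). These were the 2 small subunit genes with both KO values above both WT values. Rps27a, made as a fusion with ubiquitin, read 265.7 and 201.8 in WT and 213.4 and 116.8 in KO, and the groups overlapped (log2 fold change -0.55, SE 0.44). Rps3 read 8876 and 11373 in WT and 9871 and 10871 in KO, and both KO values lay between the WT values. Its log2 fold change of 0.04 turned to -0.04 after scaling to equal totals.

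Of 19 genes mutated in Diamond-Blackfan anaemia 9 were measured, 4 of them above 0, with a median of -0.01 and 3 (Rps15a, Rps24 and Rps26) with both KO values below both WT values, against 19.4% of all genes. Rps19, the gene most often mutated in that disease, read 229.2 and 242.3 in WT and 254.7 and 239.0 in KO, and the groups overlapped. Rps19 and Rps26 are named here after their values were seen.

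The paralogs gave the member with the smallest p. Rpl22l1 (ENSMUSG00000039221), whose protein can take the place of Rpl22 in the large subunit, read 352.3 and 422.3 in WT and 201.8 and 192.6 in KO. Both KO values were well below both WT values, and the log2 fold change was -0.96 (SE 0.32, 95% interval -1.69 to -0.24, adjusted p = 0.548 by limma). It lay between -1.10 and -0.83 when single libraries were left out. The authors' deposited table gives Rpl22l1 a log2 fold change of -0.64, a p of 0.0124 and an adjusted p of 0.358. The parent Rpl22, whose protein is known to repress Rpl22l1 mRNA, read 3212 and 4176 in WT and 3061 and 4172 in KO, with overlapping groups and a log2 fold change of -0.04 whose sign turned without WT 2 (0.15) or KO 1 (0.19).

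Within a library the level of Rpl22l1 was 11.0% and 10.1% of that of Rpl22 in WT 1 and WT 2 and 6.59% and 4.62% in KO 1 and KO 2, on coding sequences of 366 and 387 bases. The log2 ratio averaged -3.24 in WT and -4.17 in KO, a difference of -0.93, and the groups did not overlap (exact two-sided permutation test, p = 0.333, the smallest possible, and 0.333 after Benjamini-Hochberg adjustment over the 2 pairs tested). In the second pair the KO ratios were the higher. Rpl7l1, whose yeast relative acts in large subunit assembly, read 4051 and 5337 in WT and 5669 and 6032 in KO, a log2 fold change of 0.33 (SE 0.20, adjusted p = 0.591 by limma), while Rpl7 read 2801 and 3025 in WT and 2849 and 2893 in KO (-0.02). Rpl7l1 stood at 145% and 176% of Rpl7 in WT and 199% and 209% in KO, on coding sequences of 741 and 813 bases, a difference in log2 ratio of 0.35 (exact two-sided permutation test, p = 0.333). Of its windows 77.7% were unique, against 22.4% for Rpl7 and, in the first pair, 20.8% for Rpl22l1 and 69.2% for Rpl22, so levels within a pair are not measured alike.

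Rps27l, a paralog of Rps27 and a p53 target, read 420.7 and 231.4 in WT and 366.2 and 288.9 in KO. The libraries numbered 1 were higher in both genotypes, the groups overlapped, and the log2 fold change of 0.06 (SE 0.37) was -0.37 without WT 2.

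**Figure D4:**
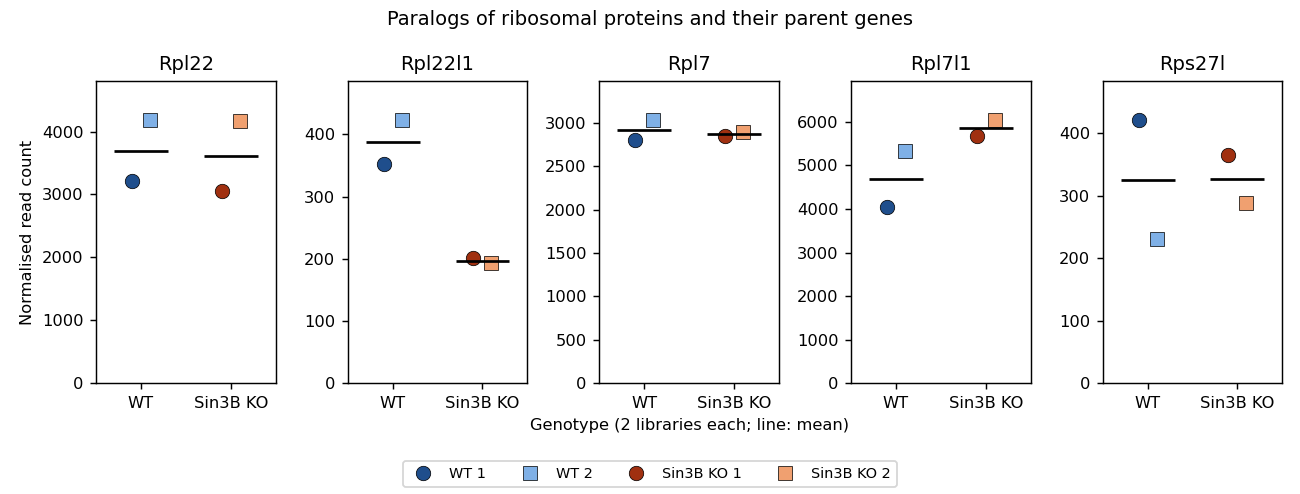
Normalised read count of Rpl22, Rpl22l1, Rpl7, Rpl7l1 and Rps27l in each library (circles numbered 1, squares numbered 2, WT blue, Sin3B KO red and orange), with the mean of 2 libraries per genotype as a line and each axis starting at 0. The Sin3B KO points of Rpl22l1 (201.8 and 192.6) lie below the WT points (352.3 and 422.3), while the Rpl22 groups overlap.

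Within the WT group most members were higher in the same library. WT 2 was above WT 1 for 30 of 36 large subunit genes and 18 of 25 small subunit genes, together 48 of 61 (78.7%) compared with 54.6% of all genes. KO 2 was above KO 1 for 23 of 36 and 11 of 25, together 34 of 61 (55.7%), compared with 50.3% of all genes. The median log2 difference of WT 2 from WT 1 was 0.25 in the large and 0.13 in the small subunit and 0.05 over all genes, and that of KO 2 from KO 1 was 0.02 and -0.02. The libraries numbered 1 also held the higher myeloid, erythroid and B lineage sums given above, and their part in this difference was not tested.

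Single genes exceeded this by far. Rps18, in the head, read 825.5 in WT 1 and 1522 in WT 2, and 413.3 in KO 1 and 1806 in KO 2, the widest spread within a genotype among the 61 members. Rpl10, which joins the large subunit late and completes its catalytic centre, read 432.1 and 787.3 in WT and 307.6 and 677.7 in KO. In both genes the libraries numbered 2 were the higher, the groups overlapped, and the fold changes of -0.37 (SE 0.59) and -0.35 (SE 0.42) were smaller than their errors. Rps13 shared this order, with the library numbered 2 about 2-fold above that numbered 1 in each genotype (log2 difference 1.01 in both). Of the 43 members with under 25% unique windows, 5 differed by more than 0.8 (log2) within a genotype, and 1 of the 18 others did, Rps27l. Rps18 and Rpl10 are named here after their values were seen.

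Most genes that build ribosomes had a fold change above 0. Of 34 small subunit assembly factors, all measured, 32 were above 0, with a median log2 fold change of 0.31, and the KO values were both above the WT values for 22, beside 53.4% above 0 and 24.7% so separated over all genes. Of 39 large subunit assembly factors 37 were measured and 32 were above 0, with a median of 0.30, and 23 had both KO values above both WT values. None passed the adjusted threshold, and 10 and 8 of them had an unadjusted p under 0.05, each with the KO values higher, where 4.97% of all genes did. The difference between these lists and the ribosomal protein genes was not tested. Of the markers of other blood cells, all 7 measured erythroid genes were also above 0 (median 0.83), but the groups overlapped for 6 of them. Above 0 were also 4 of 6 B lineage genes (median 0.54) and 6 of 11 myeloid genes (median 0.08), with overlapping groups for 5 and 11 genes. Within a genotype these values were uneven, as in Slc4a1 (1194 and 0 in WT, 748.7 and 50.8 in KO). The part of these markers in the assembly factor values was not tested.

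Las1l, a nuclease that cuts the spacer of the ribosomal RNA precursor, read 2056 and 2328 in WT and 3448 and 3364 in KO, a log2 fold change of 0.64 (SE 0.19, adjusted p = 0.548 by limma). Gnl2, a nucleolar GTPase of the large subunit, read 1772 and 1891 in WT and 2658 and 2868 in KO (0.59). Tsr1, which holds the late small subunit precursor inactive, read 941.8 and 895.1 in WT and 1306 and 1549 in KO (0.63), and Noc4l read 909.8 and 921.8 in WT and 1331 and 1419 in KO (0.59). In all 4 genes the groups were apart by more than either group's spread. With single libraries left out the medians lay between 0.31 and 0.40 for the small and between 0.24 and 0.34 for the large subunit factors, and after scaling to equal totals they were 0.23 and 0.22.

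The entry Rn45s is named for the precursor of the ribosomal RNAs, and its sequence also holds those of the mature ribosomal RNAs. It read 139405 and 99759 in WT and 76171 and 55401 in KO. Both KO values were below both WT values (log2 fold change -0.86, SE 0.26, adjusted p = 0.548 by limma). Precursor and mature RNA cannot be told apart in this count. Neither carries a polyA tail, and in polyA libraries their level in the cells and their carry-over into the library cannot be told apart.

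Of 31 listed initiation factors 29 were measured, 23 were above 0 and the median was 0.24. The initiation factors Eif3e, Eif3f, Eif3h and Eif4b are not in this list and are counted with the TOP genes below. The KO values were both above the WT values for 16, beside 53.4% above 0 and 24.7% so separated over all genes. Eif3g, a subunit of the complex that loads the small subunit onto mRNA, read 2007 and 1803 in WT and 3157 and 2708 in KO (log2 fold change 0.62, SE 0.20). Eif4e, which binds the mRNA cap, read 1190 and 1131 in WT and 1759 and 1612 in KO (0.54, SE 0.20). The median was 0.15 without WT 1 and 0.34 without WT 2.

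Elongation factors and other genes known to carry a TOP motif had 9 of 16 measured genes (of 17) above 0 and a median of 0.03, that of all genes. Pabpc1, which binds the polyA tail, read 4327 and 4308 in WT and 3305 and 2959 in KO, without overlap (log2 fold change -0.47, SE 0.18, adjusted p = 0.548 by limma). Eif3f read 545.0 and 1223 in WT and 509.4 and 563.6 in KO, and WT 2 alone stood apart. Of 19 genes of mTORC1, the Larp proteins and Myc, all measured, 12 were above 0 with a median of 0.02. Mlst8, a core mTOR partner, read 440.1 and 436.2 in WT and 615.1 and 663.5 in KO (0.54), and Rptor, which defines mTORC1, read 572.4 and 801.2 in WT and 447.9 and 500.3 in KO (-0.52). Neither passed the test.

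**Figure D5:**
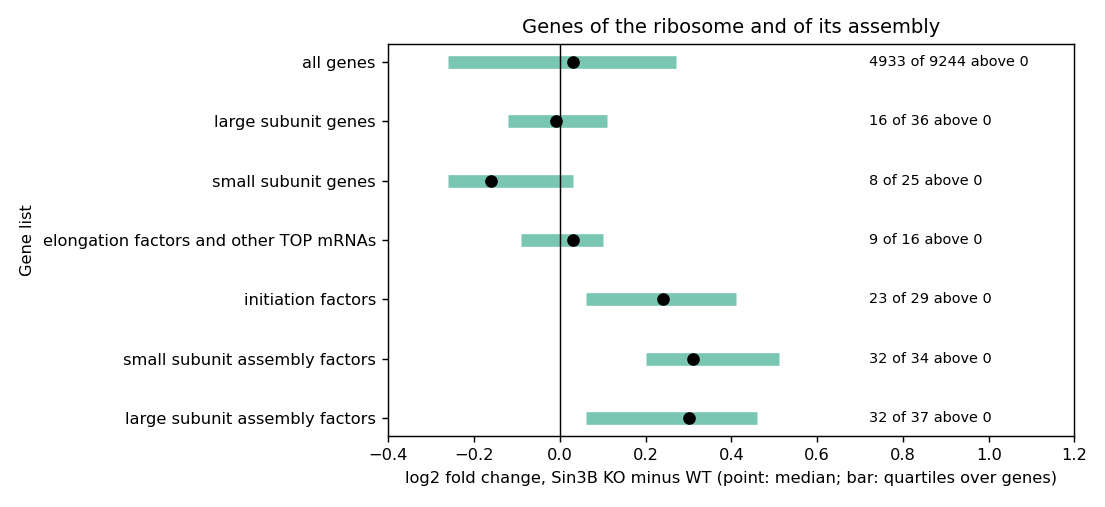
Median (point) and quartiles over genes (bar) of the log2 fold change, Sin3B KO minus WT, for all genes with library values and for gene lists of the ribosome, its assembly and translation, with the number of genes above 0 at the right. The large and small subunit genes have medians of -0.01 and -0.16, and the 2 lists of assembly factors have medians of 0.30 and 0.31.

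Of the ribosomal proteins that the name pattern leaves out, 3 are given here. Gnb2l1, in the head of the small subunit, was at 12836 and 15320 in WT and 15253 and 15047 in KO (log2 fold change 0.11). Rps3a1 read 2188 and 1950 in WT and 2193 and 1943 in KO, and Rps4y2 read 423.0 and 563.8 in WT and 478.6 and 465.5 in KO. In all 3 genes the groups overlapped.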

How the data were processed

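RNA of sorted stem cells was sequenced in 2 WT and 2 Sin3B KO libraries. Bowtie, DESeq and the build mm9 are named in the submitters' processing notes, without versions, and no source used here gives the counting tool or its annotation. The 1 table that the authors deposited has library columns with a signal, read counts divided by 1 size factor per library. Per the file headers it also holds the authors' log2 fold change with its error, their test score and their p-value, raw and adjusted. It lists 9796 genes, of which 552 lack library values and were left out, and the smallest listed mean is 120.2.

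Values were tested with limma 3.58.1 (R 4.3.3) on log2(value + 1), for genes reaching 1 in 2 or more libraries, with a trended prior (6.62 prior and 2 residual degrees of freedom). A fold change on this scale understates that of low genes. The script was tested on simulated data. The labels do not say what the library number marks, so it was not a term of the fit.

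Members and gene lists were chosen with earlier results of these data known. Named in each subunit were the 4 genes with the smallest p per direction, the 3 highest, paralogs with their parents, the P stalk and Rpl5, and from every other list the 2 genes with the smallest p. The single values of 1 small subunit gene, which counts in all totals, are not reported here. Alternatives were other scalings, pseudocounts of 0.1 and 5, filters, removal of the exon length trend, the replicate block and leaving out each library. Promoter windows are RefSeq's (GRCm38.p6), and lengths and windows of coding sequence come from GENCODE M21, matched by symbol for all 61 members.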

Additional observations from a re-analysis of the deposited data

How the results depend on the processing

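No ribosomal protein gene passed the adjusted threshold under any alternative run. Over all genes the count was 0, with 824 at an unadjusted p under 0.05, and it was 0 to 1 with a library left out (1 when WT 2 or KO 2 was left out). With the replicate block it was 27, none of them a member, and 2 large and 2 small subunit genes had an unadjusted p under 0.05, as did 1575 of all 9244 genes; each number is shared by 2 libraries, whose deviations from their group means had a correlation of 0.465 over 9244 genes, and the labels do not say what it marks. A library left alone in its group was assumed to vary like the other group. The large subunit median was -0.10 after scaling to equal totals and -0.08 with the exon length trend removed. It lay between -0.13 and 0.12 with a library left out. The small subunit median lay between -0.16 and -0.10 so, and was -0.24 after scaling to equal totals, -0.22 with the exon length trend removed and -0.05 for means of at least 500 (all genes: -0.05, 0.04 and 0.11). The differences in share lay between -0.051 and 0.0667 percentage points (large) and between -0.0572 and 0.012 (small), and those in paralog ratio between -1.19 and -0.67 and between 0.21 and 0.49.

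Signs turned in genes near 0, and the cause was not tested. After scaling to equal totals Rplp0 was at -0.01, Rps27l at -0.03, Rps3 at -0.04 and Rps9 at -0.05. After quantile normalization Rpl8 was at -0.05, Rplp0 at -0.12, Rps3 at -0.10 and Rps9 at -0.18. With the exon length trend removed Rplp0 was at -0.03, Rps27l at -0.08 and Rps9 at -0.04. With a library left out Rpl22 ranged from -0.26 to 0.19, Rpl5 from -0.37 to 0.63, Rpl7 from -0.08 to 0.04, Rps27l from -0.37 to 0.49, Rps3 from -0.13 to 0.22 and Rps9 from -0.15 to 0.21. The medians of the assembly and initiation lists, recomputed as alternatives chosen after seeing the data, stayed above 0 under each setting run for them, at 0.15 to 0.40. Removal of the exon length trend was not run for these lists. Scaling to equal totals shifted the median of all genes from 0.03 to -0.05. The count models listed as alternatives were not run, since the unit check did not accept the values as whole reads.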
